A study of Mus musculus with 4 samples.

Results

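The expression of 9 genes that carry dopamine, adenosine and cyclic AMP signals in striatal neurons was examined in single nuclei of the mouse brain. The genes were *Drd1*, *Drd2*, *Adora2a*, *Ppp1r1b*, *Pde10a*, *Pde1b*, *Rgs9*, *Gnal* and *Adcy5*, chosen by symbol as known members of this pathway, and they are 9 of the 32285 genes counted. Nuclei came from tissue sections of the brains of 5XFAD females, in which transgenes driven by the neuronal Thy1 promoter make amyloid build up. All mice carried the 5XFAD transgenes, were 7 to 10 weeks old and received 6550000000 extracellular vesicles (EVs) by vein. These EVs were engineered with a low or a high content of phosphatidylethanolamine (PE) and are called PE-low and PE-high. Each group had 2 libraries, each pooled from 2 mice, so that n = 2 per group and a difference between single mice cannot be seen. The PE-low libraries were the reference group, and no vehicle-treated or wild-type mice were analysed here.

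Striatal projection neurons are the main output cells of the striatum and fall into a direct pathway, defined by the dopamine D1 receptor, and an indirect pathway, defined by the D2 receptor and the adenosine A2a receptor. D1 and A2a receptors couple to the G protein subunit Gαolf (*Gnal*), which stimulates adenylyl cyclase 5 (*Adcy5*), while D2 receptors act through inhibitory G proteins, whose signal RGS9 shortens. Phosphodiesterases 10A and 1B break cyclic nucleotides down, and DARPP-32 (*Ppp1r1b*), once phosphorylated by protein kinase A, inhibits protein phosphatase 1.

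The libraries held 1457 to 3458 nuclei after filtering, with medians of 1712 to 2885 unique molecular identifiers (UMIs) per nucleus, and of 10689 nuclei in all 2644 were striatal projection neuron-like. Classes were named from marker genes that include none of the 9, and the 9 were also left out of the genes used for clustering. Any pair of libraries shared 0 to 4 barcodes among the kept nuclei. The PE-high libraries were shallower in the striatal class, with medians of 1584 and 1493 UMIs against 2151 and 2972 in the PE-low libraries. Levels are given as UMIs of the gene per 1000000 UMIs of a class in a library (CPM). They are compared between classes for 1 gene at a time, since a long gene gathers more nuclear RNA than a short one.

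Of the genes with a sequence in the RefSeq promoter table, *Drd1* and *Drd2* are shown because they mark the direct and the indirect pathway, and *Rgs9* because its ratio of striatal to excitatory level is the next below that of *Drd2*. The stretches lie upstream of the annotated starts (GRCm38.p6, 5′ to 3′ on the strand of the gene), with the GC box GGGCGG and the TATA box TATAAA, on either strand, in capitals. Starts in this table need not match the gene positions given below, which come from another annotation.
Drd1, chr13:54055706-54055908, minus strand: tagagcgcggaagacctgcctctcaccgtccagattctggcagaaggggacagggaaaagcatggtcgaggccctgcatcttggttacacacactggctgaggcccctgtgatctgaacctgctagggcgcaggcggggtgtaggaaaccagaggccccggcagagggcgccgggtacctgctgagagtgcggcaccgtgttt
Drd2, chr9:49340153-49340402, plus strand: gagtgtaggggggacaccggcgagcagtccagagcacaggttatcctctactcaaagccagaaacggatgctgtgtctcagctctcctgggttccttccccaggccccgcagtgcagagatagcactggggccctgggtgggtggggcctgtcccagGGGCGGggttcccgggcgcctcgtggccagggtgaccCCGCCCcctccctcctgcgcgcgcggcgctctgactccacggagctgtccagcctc
Rgs9, chr11:109298182-109298431, minus strand: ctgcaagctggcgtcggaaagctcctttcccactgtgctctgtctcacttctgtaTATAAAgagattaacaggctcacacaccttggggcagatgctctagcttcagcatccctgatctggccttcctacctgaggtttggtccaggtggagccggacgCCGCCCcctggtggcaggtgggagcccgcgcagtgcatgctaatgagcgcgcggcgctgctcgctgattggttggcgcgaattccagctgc
The GC box of the *Drd1* window and 1 of the 2 in the *Rgs9* window lie past the stretches shown. The table held 10 windows of 300 bases for 6 of the 9 genes, all but *Adora2a*, *Ppp1r1b* and *Gnal*. Of these 10 windows, 8 held a GC box and 2 a TATA box, and 0 held the cyclic AMP response half-site TGACG on either strand. Of 32851 mouse windows of the same length, 35.7% held the GC box, 13.6% the TATA box and 20.8% the half-site. The median G and C content was 63% in the 10 windows and 52.7% in all windows.

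Striatal projection neuron-like nuclei had the highest level of all 9 genes among neurons. For 9 of 9 genes the lowest of the 4 striatal values lay above the highest value in excitatory and inhibitory neuron-like nuclei, a pattern that 8.54% of the 10787 genes tested in the striatal class showed. Since classes were formed from the same nuclei, this is a description without a test. By the ratio to excitatory nuclei the separation was the widest for *Drd2* and *Rgs9* and the narrowest for *Pde10a*.

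**Figure D1:**
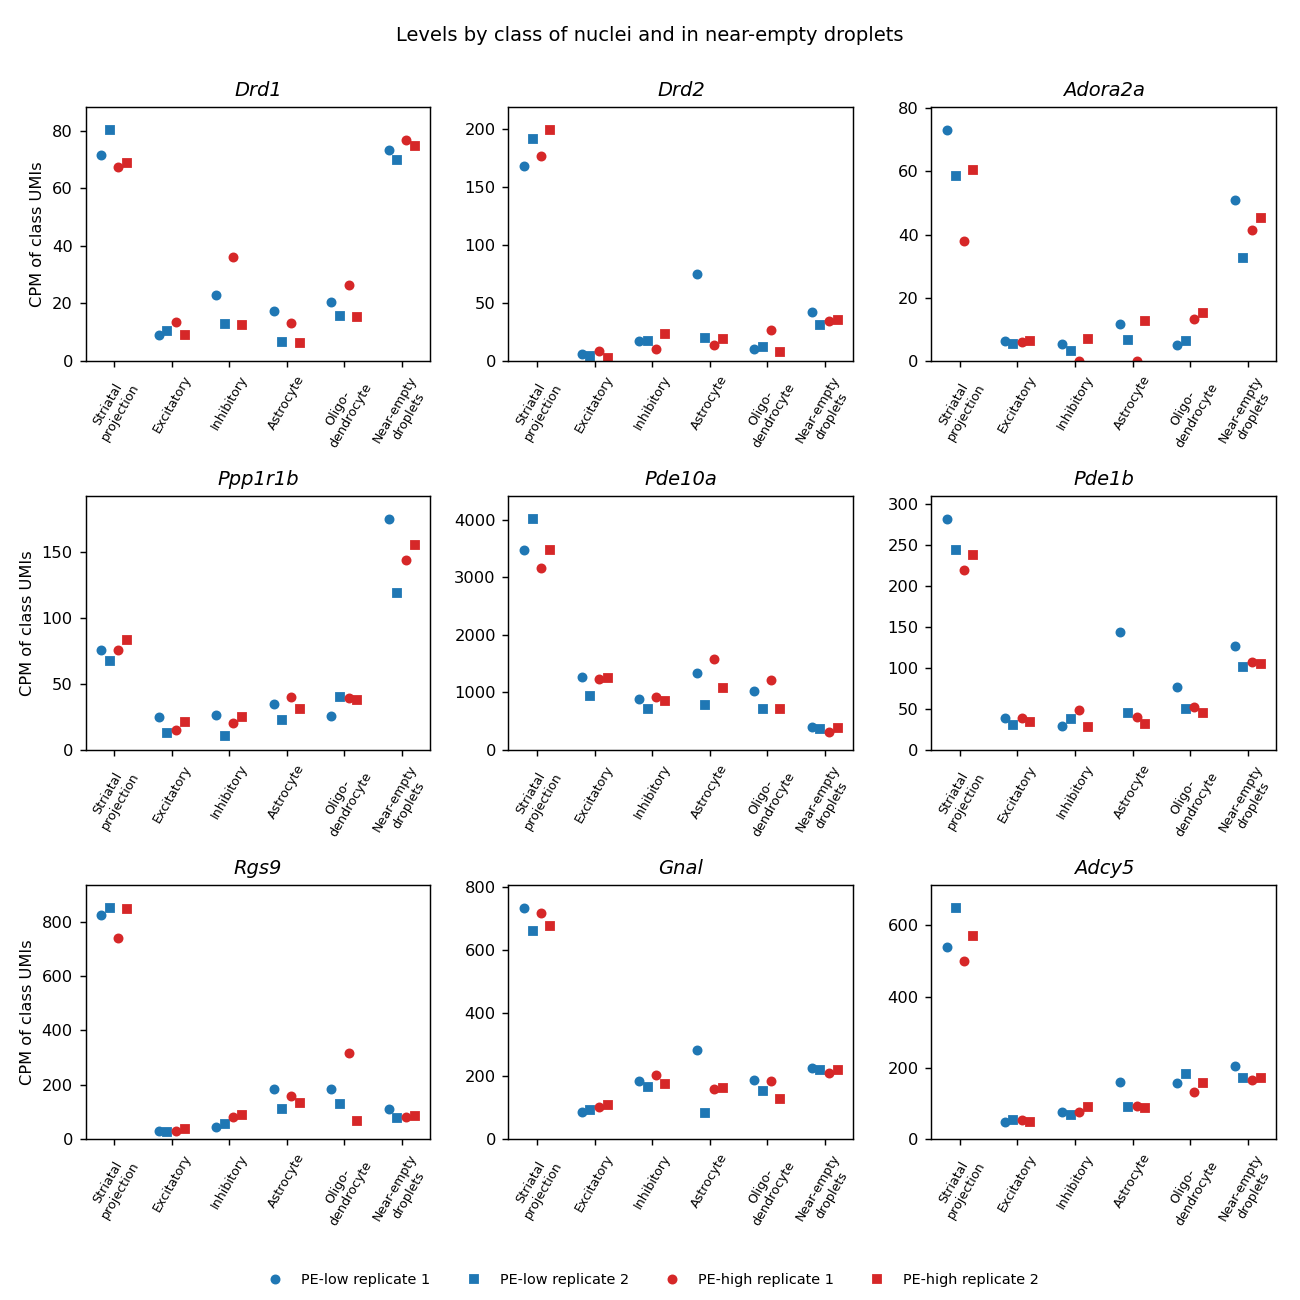
Level of each gene in CPM (vertical axes, from 0, a scale for each gene) in 5 classes of nuclei and in near-empty droplets (horizontal axes), with 1 point per library, blue for PE-low and red for PE-high. In each panel the 4 striatal points lie above the excitatory and inhibitory points, but near-empty droplets were higher still for *Ppp1r1b* in 4 of 4 libraries, for *Drd1* in 3 and for *Adora2a* in 1.

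Among the receptors, *Drd2* (chromosome 9, 49340627 to 49408177, plus strand) stood at 168, 191, 177 and 199 CPM in striatal nuclei of PE-low replicates 1 and 2 and PE-high replicates 1 and 2, the order used for all lists of 4 values. In excitatory neuron-like nuclei it stood at 5.74, 4.29, 8.27 and 2.33 CPM, so that the striatal level was 21.4 to 85.4 times as high within a library. The 4 striatal values were close to each other, and the lowest belonged to a PE-low library.

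*Drd1* (chromosome 13, 54051183 to 54055705, minus strand) stood at 71.5, 80.2, 67.2 and 68.7 CPM in striatal nuclei, which was 4.95 to 8.03 times its excitatory level. *Adora2a* (chromosome 10, 75316877 to 75334784, plus strand) stood at 73.1, 58.6, 38.0 and 60.3 CPM, or 6.43 to 11.6 times its excitatory level. The lowest *Adora2a* value rested on 26 UMIs in PE-high replicate 1, with an exact 95% Poisson interval of 24.8 to 55.7 CPM. This interval, like others from counts, covers counting error only.

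The transduction genes had larger counts and steadier ratios. *Gnal* (chromosome 18, 67088216 to 67226792, plus strand) stood at 731, 660, 716 and 675 CPM in striatal nuclei and was 6.31 to 8.55 times as high there as in excitatory and 3.53 to 4.01 times as high as in inhibitory neuron-like nuclei. *Adcy5* (chromosome 16, 35154877 to 35305738, plus strand) stood at 539, 648, 498 and 570 CPM, or 9.37 to 12 times its excitatory level. *Rgs9* (chromosome 11, 109225355 to 109298129, minus strand) stood at 824, 849, 741 and 846 CPM, 23.6 to 32.3 times its excitatory level. No member other than *Drd2* had a higher ratio to excitatory nuclei than *Rgs9* in the median over libraries (36.9 and 26.3).

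*Pde10a*, which degrades both cyclic AMP and cyclic GMP, was the least confined of the 9. It lies on chromosome 17 from 8525372 to 8986648 (plus strand) and stood at 3474, 4014, 3159 and 3485 CPM in striatal nuclei, but also at 1267, 944, 1238 and 1259 CPM in excitatory neuron-like nuclei. The striatal level was thus 2.55 to 4.25 times the excitatory one. The calcium- and calmodulin-dependent *Pde1b* (chromosome 15, 103503034 to 103530052, plus strand) stood at 281, 243, 219 and 237 CPM and was 5.71 to 8.16 times as high as in excitatory nuclei.

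*Ppp1r1b* (chromosome 11, 98348404 to 98357796, plus strand) stood at 75.8, 67.2, 76.0 and 83.5 CPM in striatal nuclei and at 24.7, 12.9, 14.8 and 21.0 CPM in excitatory nuclei. Near-empty droplets, which carry the free RNA of the suspension, held 175, 119, 144 and 155 CPM of it, more than the striatal nuclei of the same library in 4 of 4. After an estimate of this free RNA was subtracted, the striatal level of *Ppp1r1b* fell to 25.5 to 38.6 CPM, and both the excitatory and the inhibitory level were 0 in every library. Its separation between neuron classes remained, but the mean of its striatal level was 31.3 CPM against 75.6 CPM uncorrected.

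The other 8 genes differed in the same measure. The ratio of striatal nuclei to near-empty droplets was 0.88 to 1.15 for *Drd1*, 0.913 to 1.80 for *Adora2a*, 2.04 to 2.42 for *Pde1b* and 3.01 to 3.40 for *Gnal*. For *Adcy5* it was 2.62 to 3.77, for *Drd2* 4.03 to 6.15, for *Rgs9* 7.42 to 11.1 and for *Pde10a* 8.85 to 11.3. The genes with a ratio under 1 in at least 1 library were the 3 shortest, *Drd1* (4.52 kb), *Ppp1r1b* (9.39 kb) and *Adora2a* (17.9 kb), and the highest ratio belonged to the longest gene, *Pde10a* (461 kb). Between these ends the order differed, since *Gnal* (139 kb) and *Adcy5* (151 kb) had lower ratios than the shorter *Drd2* (67.6 kb) and *Rgs9* (72.8 kb). What part gene length played was not tested. With the free RNA subtracted, 9 of 9 genes still had all 4 striatal values above all excitatory and inhibitory ones. The share of all genes with this pattern was counted before subtraction only. Subtraction set *Adora2a* to 0 in inhibitory nuclei and *Ppp1r1b* to 0 in both other neuron classes.

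**Figure D2:**
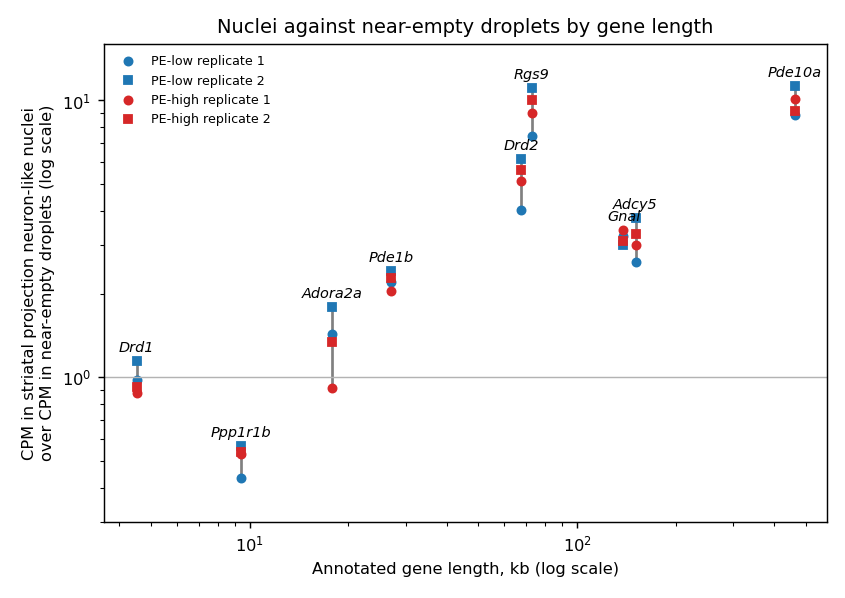
CPM in striatal projection neuron-like nuclei divided by CPM in near-empty droplets of the same library (vertical axis, log scale) against the annotated length of the gene in kb (horizontal axis, log scale), with 1 point per library and a bar from the lowest to the highest. *Ppp1r1b* lies under 1 in all 4 libraries and *Rgs9* and *Pde10a* lie above 7.

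Few nuclei held a UMI of a receptor gene. *Drd2* was detected in 19.9% to 29.6% of striatal nuclei over the 4 libraries, against 0.952% to 4.35% of oligodendrocyte-like nuclei, which should lack it. *Drd1* was detected in 9.94% to 19.5% against 1.90% to 4.35%, and *Adora2a* in 6.05% to 14.7% against 0.971% to 2.17%. Median depth was 1493 to 2972 UMIs in striatal and 905 to 1532 in oligodendrocyte-like nuclei, so the shares are not on equal depth, but the CPM of *Drd2* was 6.73 to 26.4 times as high in striatal as in oligodendrocyte-like nuclei within a library. *Pde10a* was detected in 94.2% to 98.8% of striatal nuclei and in 25.8% to 48.5% of oligodendrocyte-like nuclei.

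Striatal nuclei held 19.8% to 26.5% of all UMIs of a library. They held 81.5% to 87.7% of the *Drd2* UMIs and 79.1% to 85.0% of those of *Rgs9*. For *Adcy5* the share was 69.2% to 72.6%, and for *Adora2a* 70.3% to 75.3%. *Pde10a* had the lowest share, 43.8% to 54.4%, followed by *Ppp1r1b* at 49.6% to 56.5%.

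*Pde10a* UMIs were also found in nuclei named as glia. Its mean was 1195 CPM in astrocyte-like, 917 CPM in oligodendrocyte-like and 1183 CPM in microglia-like nuclei, against 1177 CPM in excitatory neuron-like nuclei. Each library's value in these classes lay above its near-empty droplets, which held 312 to 393 CPM. Doublets remain, and some glial clusters also had neuronal markers raised. An astrocyte-like cluster of 67 nuclei had 8 excitatory markers raised, and 1 of 53 had 9 striatal markers raised. A microglia-like cluster of 38 also had 9 striatal markers raised. *Pde10a* was detected in 77.1%, 39.5%, 85% and 38.5% of microglia-like nuclei, at median UMIs of 2505, 960, 2496.5 and 1184. What part doublets played was not tested. The other 8 genes had fewer UMIs in these classes. *Rgs9* still stood at 184, 110, 159 and 132 CPM in astrocyte-like nuclei, against 111, 76.6, 82.4 and 84.5 CPM in near-empty droplets. Its striatal level was 4.47 to 7.74 times the astrocyte-like and 3.45 to 5.01 times the microglia-like level. In oligodendrocyte-like nuclei of PE-high replicate 2 it lay below the droplets, at 67.9 CPM. Single libraries also stood apart. In PE-low replicate 1, astrocyte-like nuclei held 74.9 CPM of *Drd2*, against 13.3 to 19.3 CPM in the other 3 libraries. They also held 144 CPM of *Pde1b* against 31.3 to 45.1 CPM. The astrocyte-like cluster with raised striatal markers made up 20 of 100, 11 of 197, 8 of 42 and 14 of 130 such nuclei. Its part in these values was not tested. *Rgs9* stood at 315 CPM (24 UMIs) in oligodendrocyte-like nuclei of PE-high replicate 1 against 67.9 to 183 CPM in the others, and *Gnal* at 457 CPM (25 UMIs) in microglia-like nuclei of PE-high replicate 2 against 108 to 270 CPM. Microglia-like nuclei, with 20 to 48 nuclei per library, ranged from 0 to 73.2 CPM for *Adora2a*, so that no order against the striatal level can be read there.

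Within striatal projection neuron-like nuclei, 673 were direct pathway-like and 906 indirect pathway-like by markers other than the 9 genes, and 1065 were neither. *Drd1* stood at 134, 134, 90.3 and 131 CPM in direct and at 24.2, 10.0, 15.4 and 26.6 CPM in indirect pathway-like nuclei. *Drd2* stood at 8.36, 2.13, 54.2 and 9.15 CPM in direct and at 396, 541, 379 and 436 CPM in indirect pathway-like nuclei. *Adora2a* went with *Drd2*, at 20.9, 12.8, 18.1 and 0 CPM in direct and 159, 149, 92.3 and 133 CPM in indirect nuclei.

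Within a library the level of *Drd1* in direct nuclei was 4.93 to 13.4 times that in indirect nuclei. For *Drd2* it was 0.00394 to 0.143 times and for *Adora2a* 0 to 0.196 times. Over the 4 libraries pooled, *Drd1* was 6.39 times as high in direct as in indirect nuclei (exact 95% interval 4.47 to 9.36, from 185 and 37 UMIs). *Drd2* was 37.6 times as high in indirect as in direct nuclei (23.4 to 64.9, from 818 and 17 UMIs), and *Adora2a* 10.8 times (6.77 to 18.2, from 262 and 19 UMIs). Of the 17 direct *Drd2* UMIs, 9 lay in PE-high replicate 1.

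The genes downstream of the receptors differed little between the pathways, at pooled ratios of 0.973 to 1.12. The ratio of direct to indirect nuclei, pooled over libraries, was 0.973 for *Gnal* (0.896 to 1.06), 1.03 for *Pde1b* (0.9 to 1.17) and 1.09 for *Ppp1r1b* (0.857 to 1.39). It was 1.12 for *Pde10a* (1.09 to 1.16), 1.11 for *Rgs9* (1.04 to 1.20) and 1.11 for *Adcy5* (1.01 to 1.21). Within a library the ratio was 1.06 to 1.19 for *Pde10a*, 1.06 to 1.15 for *Rgs9* and 0.947 to 1.34 for *Adcy5*. It was 0.882 to 1.15 for *Gnal*, 0.745 to 1.60 for *Pde1b* and 0.949 to 1.76 for *Ppp1r1b*.

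**Figure D3:**
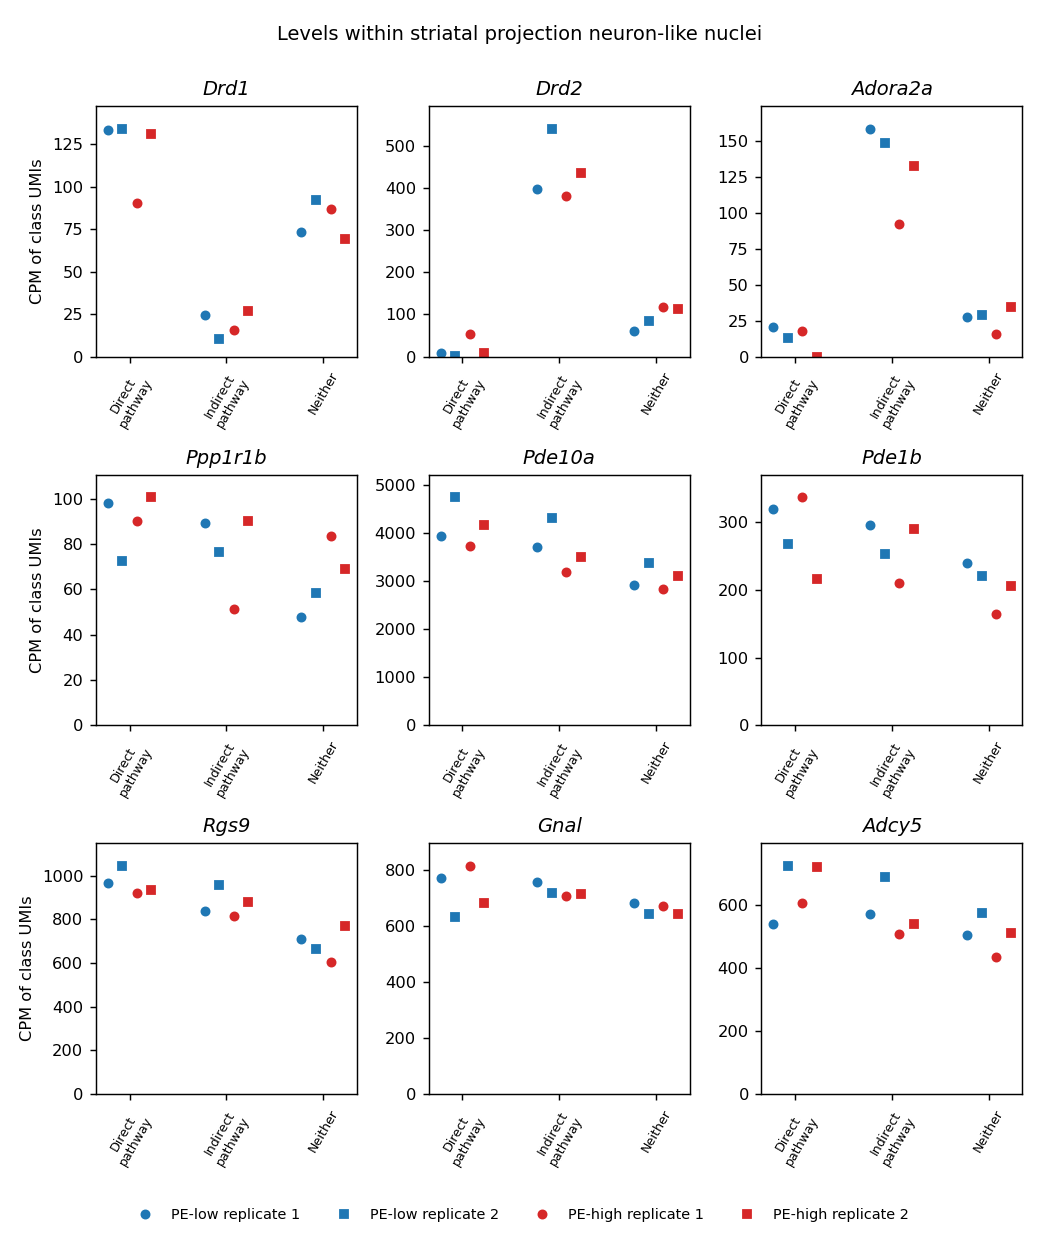
Level of each gene in CPM (vertical axes, from 0) in direct pathway-like, indirect pathway-like and remaining striatal projection neuron-like nuclei (horizontal axes), with 1 point per library. *Drd1* is high in direct nuclei, *Drd2* and *Adora2a* in indirect nuclei, and the other 6 genes lie at similar heights in both.

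Detection in single nuclei was sparse. Of 953 striatal nuclei with a UMI of either dopamine receptor, 341 held only *Drd1*, 596 only *Drd2* and 16 both. No UMI of either was found in 1691 nuclei. Of 612 nuclei with *Drd2*, 2.61% also held *Drd1*, which was detected in 9.94% to 19.5% of all striatal nuclei of a library. Of 290 nuclei with *Adora2a*, 172 (59.3%) also held *Drd2*, detected in 19.9% to 29.6% of all striatal nuclei, and 12 (4.14%) also held *Drd1*. These shares pool nuclei of 4 libraries and include UMIs of free RNA, so they are given as descriptions.

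Nuclei named after neither pathway held both receptors at intermediate levels. In them *Drd1* stood at 73.6, 92.3, 86.7 and 69.0 CPM and *Drd2* at 60.6, 83.5, 118 and 112 CPM. Of 299 such nuclei with either receptor, 162 held only *Drd1*, 132 only *Drd2* and 5 both. The same class had lower levels of *Pde10a*, from 2842 to 3384 CPM, than direct nuclei, from 3740 to 4746 CPM.

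The striatal class was made of 4 clusters, which differed among themselves. The largest, with 1459 nuclei, had 4167 CPM of *Pde10a* and 951 CPM of *Rgs9*, and the next, with 986 nuclei and the dopamine D3 receptor gene *Drd3* as its leading gene, had 2893 and 642 CPM. Smaller clusters of 110 and 89 nuclei had 95 and 139 CPM of *Drd1* and 50 and 7.71 CPM of *Drd2*. All of these are levels over the 4 libraries pooled.

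The genes most alike in pattern to each member were found by Pearson correlation of log2(CPM + 1) over 28 sums, 7 classes in 4 libraries, among 7431 genes at 20 CPM or more. The sums share libraries and differ in depth, and the values are descriptions. *Rgs9* was most like *Rarb* (r = 0.947), *Gng7* (0.902) and *Adcy5* (0.894), and *Adcy5* was most like *Rarb* (0.921), *Rgs9* (0.894) and *Cyld* (0.881). *Rarb* was among the markers that named the class. *Pde10a* was most like *Phactr1* (0.942), *Caln1* (0.903) and *Bcl11b* (0.873). *Pde1b* was most like *Adamts3* (0.954), *Tbc1d8* (0.945) and *Strn* (0.940), and *Ppp1r1b* shared 2 of these, *Strn* (0.896) and *Tbc1d8* (0.894), below *Gm10754* (0.899).

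*Gnal* was most like *Cacnb2* (0.897), *Spock3* (0.884) and *Ryr3* (0.881). The receptors had weaker neighbours. *Drd1* was most like *Lhfpl4* (0.810), *Rragd* (0.801) and *Gm48749* (0.795), *Drd2* most like *4930428E07Rik* (0.795), *Meis2* (0.776) and *Osbpl8* (0.772), and *Adora2a* most like *Ap1s2* (0.766), *Drd2* (0.736) and *Prkch* (0.735). Among the members, r ran from 0.184 for *Drd2* with *Ppp1r1b* to 0.894 for *Rgs9* with *Adcy5*, and it was 0.274 for *Drd1* with *Drd2*.

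The effect of EV content was then compared between PE-high and PE-low libraries in each neuron class. No member passed an adjusted p of 0.1 in striatal projection neuron-like nuclei, where 0 of 10787 genes (0%) did by edgeR's quasi-likelihood test. At an unadjusted p under 0.05 there were 473 genes by edgeR and 85 by DESeq2, which also called 0 genes. Estimated log2 fold changes were negative for 7 of 9 members, with a median of −0.18 against −0.00 over all genes tested. A lower level in a summed class cannot be told apart from a change in the makeup of the class.

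*Adora2a* had the largest estimate, −0.38 on the log2 scale (SE 0.22, 95% interval −0.84 to 0.09). It was −0.15 without PE-high replicate 1, −0.23 without PE-low replicate 1 and −0.82 without PE-high replicate 2. *Drd1* had −0.18 (−0.57 to 0.21) and *Drd2* 0.05 (−0.28 to 0.38). For *Pde10a* it was −0.20 (−0.48 to 0.08), for *Pde1b* −0.22 (−0.53 to 0.09) and for *Adcy5* −0.18 (−0.48 to 0.13). *Rgs9* had −0.10 (−0.38 to 0.18), *Gnal* −0.03 (−0.30 to 0.25) and *Ppp1r1b* 0.14 (−0.23 to 0.52). Each of the 9 intervals included 0, and the narrow ones belonged to the genes with many UMIs, *Pde10a*, *Rgs9* and *Gnal*.

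In striatal CPM the groups did not overlap for *Drd1* and *Pde1b*, lower in PE-high, and for *Ppp1r1b*, higher in PE-high. Of all tested genes 14.4% had both PE-high values below both PE-low values, and 18.9% had them above, so 2 and 1 of 9 members are near the background. The free RNA share estimated for the striatal class was higher in PE-high (39.5% and 37.7%) than in PE-low libraries (32.3% and 31.3%), and once it was subtracted the estimate of *Ppp1r1b* turned to −0.032 and that of *Gnal* to 0.036. *Rgs9* then had −0.013, *Pde10a* −0.12 and *Adcy5* −0.11, while *Drd1* had −0.38 and *Adora2a* −0.53. For excitatory nuclei of the same libraries the estimated share was lower, at 17.6% and 16.6% in PE-high and 15.6% and 14.6% in PE-low. The markers used for the estimate differed between these classes, and why the shares differ was not tested. The part of free RNA in the differences between groups was not tested beyond this.

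Single libraries decided the calls. Without PE-low replicate 1, *Pde10a* (log2 −0.34, adjusted p = 0.000259 by edgeR) and *Adcy5* (log2 −0.33, adjusted p = 0.0689 by edgeR) passed the threshold, with 311 genes in all. In that fit the lone PE-low library is assumed to vary like the PE-high pair. Without PE-low replicate 2 the estimates were −0.06 for *Pde10a* and 0.0028 for *Adcy5*. The 2 PE-low libraries themselves stood at 3474 and 4014 CPM for *Pde10a* and at 539 and 648 CPM for *Adcy5*, and for both genes the PE-high values overlapped the PE-low range. The largest striatal cluster had the highest level of both genes. It held 402 of 564 striatal nuclei in PE-low replicate 2 and 435 of 808 in PE-low replicate 1. In PE-high replicates 1 and 2 it held 183 of 397 and 439 of 875. What part this makeup played was not tested.

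**Figure D4:**
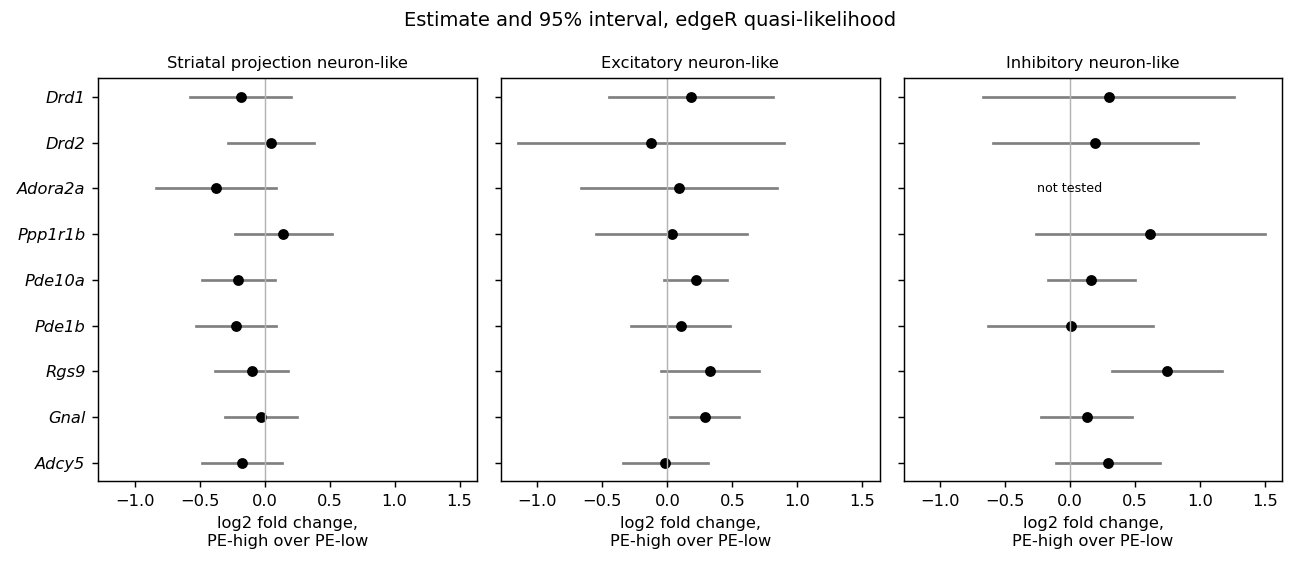
Log2 fold change of PE-high over PE-low (horizontal axes) for each gene (rows) in 3 neuron classes, with the estimate as a point and its 95% interval as a bar, from edgeR with 2 libraries per group. All striatal intervals include 0, as do those in excitatory nuclei except *Gnal* and in inhibitory nuclei except *Rgs9*, and neither passes the adjusted threshold.

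In direct pathway-like nuclei 7 members and in indirect pathway-like nuclei 9 members could be tested, and 0 passed in either class. Over all genes 0 of 5859 and 0 of 6857 were called (0% in each), with 234 and 326 at an unadjusted p under 0.05 by edgeR and 15 and 29 by DESeq2, which called 0 in both. In indirect nuclei, where *Drd2* and *Adora2a* are highest, the estimates were −0.23 (−0.65 to 0.20) for *Drd2*, −0.42 (−0.91 to 0.07) for *Adora2a* and −0.31 (−0.64 to 0.02) for *Pde10a*. In direct nuclei *Drd1* had −0.23 (−0.78 to 0.32) and *Pde10a* −0.15 (−0.39 to 0.09).

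The difference between direct and indirect effects was tested as an interaction within libraries. It called 1 of 7443 genes (0.0134%) and 0 members. *Drd2* had the largest member estimate, 2.33 (0.93 to 3.72, unadjusted p = 0.00114, adjusted p = 0.632 by edgeR), and in direct nuclei it rests on 4 and 1 UMIs in PE-low and 9 and 3 UMIs in PE-high libraries.

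In excitatory neuron-like nuclei 1 of 13177 genes (0.00759%) was called and 0 of 9 members. *Gnal* had 0.29 (0.02 to 0.55, adjusted p = 0.999 by edgeR), at 85.5 and 90.7 CPM in PE-low and 102 and 107 CPM in PE-high libraries, and *Rgs9* had 0.33 (−0.05 to 0.71). For these 2 the PE-high values lay above both PE-low values, which 13.1% of tested genes did. Excitatory estimates were positive for 7 of 9 members, with a median of 0.10 against 0.00 over all genes. In these nuclei the 12 striatal markers summed to 1631 and 1590 CPM in PE-low and 1705 and 1640 CPM in PE-high libraries. Their part in the estimates was not tested.

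In inhibitory neuron-like nuclei 0 of 10126 genes (0%) were called, with 368 at an unadjusted p under 0.05 by edgeR and 46 by DESeq2, which called 0. All 8 members tested had positive estimates, with a median of 0.24 against 0.00 over all genes. *Rgs9* had 0.74 (0.32 to 1.17, unadjusted p = 0.00166, adjusted p = 1.00 by edgeR), and its levels were 45.9 and 53.9 CPM in PE-low and 79.6 and 86.8 CPM in PE-high libraries. *Rgs9* and *Adcy5* had both PE-high values above both PE-low values, as did 14.8% of tested genes. The summed level of the 12 striatal markers in the same nuclei was also higher in PE-high (1395 and 1329 CPM) than in PE-low libraries (1295 and 1103 CPM). The largest inhibitory cluster held 115 of 373 and 470 of 770 nuclei in PE-low and 60 of 189 and 266 of 590 in PE-high libraries. What part the striatal markers or this makeup played in the estimates was not tested.

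Differences in the PE-high effect between striatal and other neurons were tested as interactions. Most members had opposite signs in striatal and excitatory nuclei, but *Adcy5* was negative (−0.18 and −0.02) and *Ppp1r1b* positive (0.14 and 0.03) in both. Against excitatory nuclei 9 of 12137 genes (0.0742%) and 0 members were called. *Pde10a* had −0.42 (−0.71 to −0.13, unadjusted p = 0.00579, adjusted p = 0.546 by edgeR), *Rgs9* −0.41 (−0.77 to −0.05) and *Gnal* −0.31 (−0.60 to −0.02). Against inhibitory nuclei, a comparison added after the data were seen, 2 of 11310 genes (0.0177%) and 0 members were called, and *Rgs9* had −0.85 (−1.31 to −0.39, unadjusted p = 0.000774, adjusted p = 0.547 by edgeR). By edgeR, 710 (5.85%) and 498 (4.4%) of all genes had an unadjusted p under 0.05 in these 2 interactions, which share the striatal libraries.

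The wider pathway was described with a list of 83 further genes in 8 roles. In striatal projection neuron-like nuclei 26 of 83 had all 4 values above all excitatory values and 21 had all 4 below, against 15.7% and 16.3% of the 10787 genes tested in that class. The roles differed in count. Among phosphodiesterases 4 of 10 were above and 3 below, among receptors 6 of 13 and 1, and among adenylyl cyclases 0 of 7 were above and 4 below.

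Among the phosphodiesterases, *Pde1c* stood at 351 ± 32.9 CPM (SD over 4 libraries) in striatal nuclei, 42.9 times its excitatory mean, and *Pde7b*, specific for cyclic AMP, at 1501 ± 145 CPM, 5.90 times. Between the pathways, *Pde1c* had means of 426.6 CPM in indirect and 234 CPM in direct nuclei. Among the G proteins and chaperones, *Gng7*, the gamma subunit that partners Gαolf, stood at 354 ± 34.6 CPM (13.7 times), and *Ric8b*, a chaperone of Gαolf, at 275 ± 13.8 CPM (4.0 times). The receptor *Drd3* stood at 29.2 ± 12 CPM (20.9 times) and *Gpr52*, a receptor that couples to Gαs proteins, at 5.46 ± 4.32 CPM, overlapping the excitatory values.

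Among the other adenylyl cyclases, *Adcy3* stood at 42.7 ± 8.55 CPM and *Adcy9* at 220 ± 33.6 CPM, 1.25 and 0.963 times their excitatory means, and both overlapped. *Adcy8*, named after its values were seen, was lower in striatal nuclei, at 9.06 ± 4.22 CPM or 0.0774 times its excitatory mean. Of the RGS genes *Rgs14* stood at 15.4 ± 3.06 CPM (2.87 times) and *Rgs8* at 53.4 ± 9.16 CPM (2.06 times). Of the kinases and phosphatases *Prkar2b*, a regulatory subunit of protein kinase A, stood at 192 ± 13.3 CPM (2.84 times) and *Ppp1cc*, a catalytic subunit of protein phosphatase 1, at 74.5 ± 11.4 CPM (2.77 times).

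The transcription genes lay near their excitatory level, with *Crtc1*, a CREB coactivator, at 75.1 ± 3.83 CPM (1.32 times) and *Crem* at 21.7 ± 4.48 CPM (1.25 times). Of the genes of dopamine synthesis and handling, *Ddc*, with 28 UMIs, stood at 5.25 ± 3.53 CPM.

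**Figure D5:**
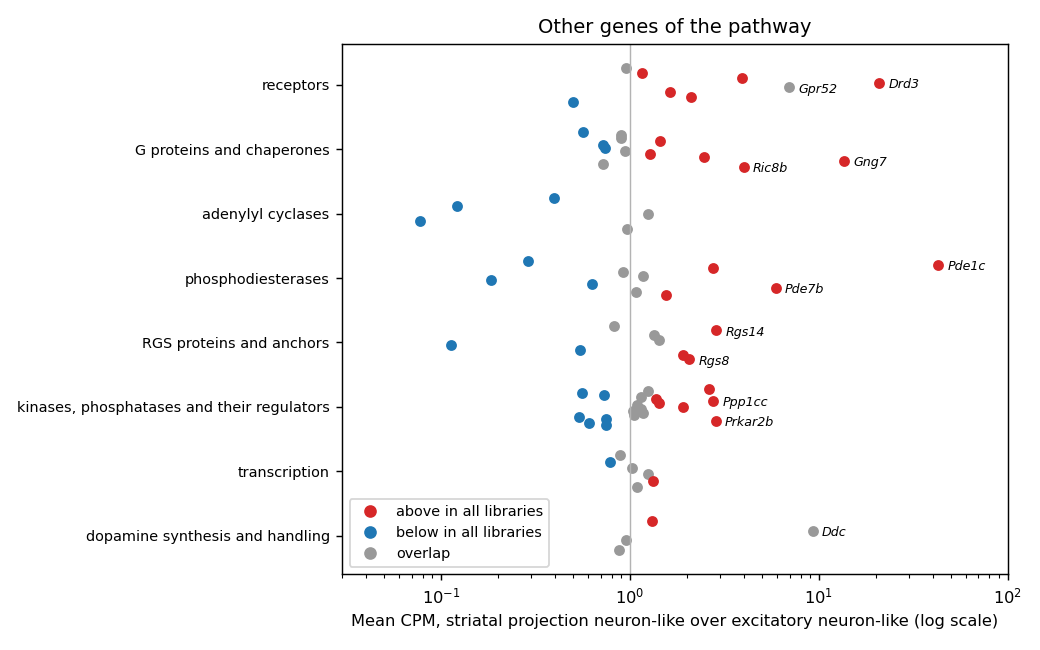
Ratio of the mean CPM in striatal projection neuron-like to that in excitatory neuron-like nuclei (horizontal axis, log scale) for 72 of the 83 listed genes at 5 CPM or more, by role (rows), coloured by whether the 4 striatal values lie above, below or among the 4 excitatory values. *Pde1c*, *Drd3* and *Gng7* lie farthest to the right, and the adenylyl cyclases lie at or left of 1.25.

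Between the groups, 0 of 70 listed genes tested in striatal nuclei passed the threshold by edgeR, 31 having positive and 39 negative estimates (median −0.04), and 5 had an unadjusted p under 0.05. The same list gave 0 called of 72 tested in excitatory and 0 of 70 in inhibitory nuclei, with 2 and 4 at an unadjusted p under 0.05. In the indirect class 0 of 61 and in the direct class 0 of 56 were called.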

How the data were processed

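Nuclei from brain sections in 4 libraries, 2 per group, were profiled with 10x 3' v3.1 chemistry. The authors counted UMIs with Cell Ranger 7.1.0 on mm10, per the labels and methods, and deposited raw, unfiltered counts for each gene and barcode. Lists of genes and barcodes, whose unit is other than a count, were deposited beside them and gave the names. Whether intronic reads were counted is not given in the sources used here. Total UMIs per library were 29472021 to 43272337.

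Nuclei were called as barcodes above a knee, set 10 times below the 0.99 quantile of UMIs, or, from 500 UMIs, different from the profile of near-empty barcodes ranked 45000 to 90000 (FDR 0.01), and 8745 to 13915 per library were called. Following the study's methods, the filters were 200 to 2500 genes per nucleus and a mitochondrial share of 3% or less. The mitochondrial limit removed 5454 to 12447 called nuclei per library. With the same stated filters the study reports many more nuclei in each group than were kept here, where 10689 remained in all. The nuclei described here are therefore not the study's own set. Why the counts differ was not tested. Clusters came from 2000 variable genes without the 9 members (scanpy 1.11.5, leidenalg 0.10.2, resolution 0.8, and 1.0 within the striatal class). Classes were named from marker lists with at least 3 markers. The naming thresholds were set after the clusters' marker values, but not those of the 9 genes, had been seen. Of the kept nuclei, 269 stayed unnamed. Scrublet marked 31 of 10689 nuclei as doublets, under 0.5%, and was taken not to have worked, so doublets remain and an alternative without the 10% of nuclei with the most UMIs was added.

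UMIs were summed per class and library and tested with edgeR 4.0.16 in R 4.3.3 (filterByExpr, TMM, quasi-likelihood). p-values were adjusted by Benjamini-Hochberg across every gene tested in a comparison, and genes were called under 0.1. Intervals are from the t distribution with the moderated degrees of freedom. Differences between classes were tested as class by treatment interactions with library as a block. The tests were checked on simulated data. DESeq2 1.42.0 was an alternative. CPM are UMIs per 1000000 of a class sum. Free RNA shares were estimated from markers of other classes. p-values measure the spread between pooled libraries. Gene positions are from GENCODE M21, and promoters from RefSeq tables (GRCm38.p6).

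The members and the gene lists were chosen with earlier results of these data known. Genes named are the 9 members, per member the 3 genes most alike in pattern and, per role of the pathway list, the 2 genes with the highest ratio of striatal to excitatory level at 5 CPM or more, with any gene called. 1 gene that this rule names is not reported here.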

Additional observations from a re-analysis of the deposited data

How the results depend on the processing

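In striatal projection neuron-like nuclei the count of 0 called genes became 3 with RLE factors, 28 without a filter on low counts, 54 with a replicate block, 1 with ambient UMIs subtracted, 3 without Scrublet doublets, 2 with a marker gate and 1 without the top 10% of UMIs, a setting added after the data were seen. In direct pathway-like nuclei no setting other than leaving out a library moved the count of 0, and in indirect pathway-like nuclei it became 1 without a filter and 20 with the gate. In excitatory nuclei the count of 1 became 0 with DESeq2, 39 without a filter, 12 with a replicate block, 2 at a mitochondrial limit of 15%, 5 without an upper limit on genes, 41 with ambient UMIs subtracted and 0 without the top 10%. In inhibitory nuclei 0 became 3 without a filter, 1 with a replicate block, 2 without an upper limit and 8 with ambient UMIs subtracted. The deviations of same-numbered libraries were hardly correlated over genes (0.004, 0.047 and 0.052 in striatal, excitatory and inhibitory nuclei). This correlation cannot show whether same-numbered libraries were handled together, since counting noise enters each difference. The striatal-excitatory interaction went from 9 to 0 with DESeq2, 67 without a filter, 2 at the mitochondrial limit of 15%, 0 without an upper limit, 0 with ambient UMIs subtracted, 15 without Scrublet doublets and 2 without the top 10%. The striatal-inhibitory one went from 2 to 0 at an adjusted p of 0.05, 0 with DESeq2, 16 without a filter, 1 at the mitochondrial limit of 15%, 0 with ambient UMIs subtracted, 4 without Scrublet doublets and 0 without the top 10%. The direct-indirect one went from 1 to 0 with DESeq2, 2 with ambient UMIs subtracted, 0 with the gate and 2 without the top 10%. The cause of these shifts was not tested. Leaving out 1 library gave 0 to 311 calls in striatal, 0 to 28 in direct, 0 to 179 in indirect, 10 to 240 in excitatory and 0 to 42 in inhibitory nuclei, and 0 to 16, 0 to 4 and 0 to 11 in the 3 interactions. The largest counts came without PE-low replicate 1, except in excitatory nuclei (without PE-low replicate 2) and in the first 2 interactions (without PE-high replicate 2). A lone library left in a group is assumed to vary like the other group.

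Of 126 member estimates in striatal nuclei under the alternatives, 112 kept sign and side of the threshold, 2 passed it (*Pde10a* and *Adcy5* without PE-low replicate 1) and 12 changed sign. *Drd2* became −0.17 at the mitochondrial limit of 15%, −0.13 with the gate and −0.019 without the top 10% of UMIs. *Ppp1r1b* became −0.032 with ambient UMIs subtracted. *Gnal* became 0.023 without an upper limit on genes, 0.036 with ambient UMIs subtracted and 0.028 without the top 10%. Without 1 library the estimates ran from −0.071 to 0.18 for *Drd2* (negative without PE-low replicate 1 or PE-high replicate 2), from −0.075 to 0.014 for *Gnal* (positive without the same libraries) and from −0.33 to 0.0028 for *Adcy5* (positive without PE-low replicate 2). The block changed no call of a member. Levels moved by more than their SD in 21 of 90 cases, 8 of them with ambient UMIs subtracted and 9 with the gate. *Adora2a* ran from −0.82 to −0.15 over the alternatives, with 26 to 134 UMIs per library in striatal nuclei, and *Drd1* from −0.38 to −0.016.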
